A study of Bos taurus with 88 samples.

Results

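Whole blood of 1-week-old calves from a dairy and a beef system was compared at 168 h after birth, the last of the 4 sampling ages. The comparison holds the 22 libraries, of 88 in the series, whose label gives that age. There were 8 Holstein (H) dairy calves, labelled holstein friesian, 7 calves of Charolais × Limousin cows (CL) and 7 calves of Limousin × Friesian cows (LF), by the tag labels 1 library per calf, and the 14 CL and LF calves were pooled as beef. Calves are numbered within each age, so that a number can mean another calf at another age. The H calves were taken from the dam, given colostrum by hand at 5% of body weight, penned alone at first and later grouped on milk replacer and concentrate. The beef calves, which had Aberdeen Angus or Charolais sires, stayed with and suckled their dams on another farm. Breed, farm, rearing and feeding therefore changed together and cannot be told apart in any difference given here.

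Calves are born almost without circulating antibody, because the bovine placenta does not pass immunoglobulin, and they take it up from colostrum through the gut during the first day. Over the following days the fetal and stress-related make-up of the blood gives way to that of the young animal, as neutrophil numbers fall, lymphocytes expand and red cell precursors leave the circulation. RNA of whole blood is a mixture of all these cells. In such samples fewer cells of a type and less RNA per cell cannot be told apart.

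The count files name genes by Ensembl identifier and do not pair these with symbols, and none of the 24616 identifiers could be matched to a symbol. Genes are therefore described as groups, and 4 of them are given by identifier. The markers of blood cell types could not be looked up, so the cell make-up of the libraries was not checked.

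The 22 libraries held 16014651 to 37775818 counts on genes (median 23877191.5), so that 3 counts in a library corresponded to 0.0794 to 0.187 CPM, the count per 1000000 counts on genes. In CL calf 1 and H calves 1 and 8 a single gene took 7.73%, 7.12% and 14.1% of the counts. For that gene no difference between the systems was detected (log2 fold change 1.496 ± 0.87 (SE), adjusted p = 0.202 by edgeR). Its median was 11587 CPM in H and 5947 CPM in beef, with a wide spread, so a difference is not excluded. Without these 3 libraries there were 1238 DEG, as defined further on, and without the 10 most counted genes 1175, against 1180 with all.

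The tag labels of the calves were checked with 12 genes that were switched on (at least 20 counts) or off (at most 3 counts) in at least 97% of all 88 libraries, with at least 8 libraries in each state. All 8 H libraries and 10 of the 14 beef libraries at 168 h had no gene in a state that the other 3 libraries of their calf all contradicted. The other 4, labelled CL 1, CL 2, CL 3 and LF 7, went against their tag in 6, 3, 3 and 2 genes. The library labelled CL 1 at 168 h had 0 differences from 3 libraries of an LF calf, and the 72 h library of that LF calf had 0 differences from the remaining 3 libraries of the CL 1 calf, so that its labelled age is also in doubt. The libraries labelled CL 2 and CL 3 had 0 differences from each other's calf, and the latter also had 0 from the other libraries of the LF 7 calf. The library labelled LF 7 had 0 differences from the 4 libraries of a CL calf. In these 5 cases (4 at 168 h and 1 at 72 h) every calf with 0 differences was a beef calf. The calves with 0 differences from the libraries labelled CL 1 and LF 7 also have a library of their own at 168 h. As those did not go against their tags, the 14 beef libraries may hold fewer than 14 calves. An exchange of CL 2 and CL 3 with each other would leave the number of calves unchanged. Total DEG counts by edgeR are given with and without these libraries, as are the counts shared between breeds and ages.

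**Figure D1:**
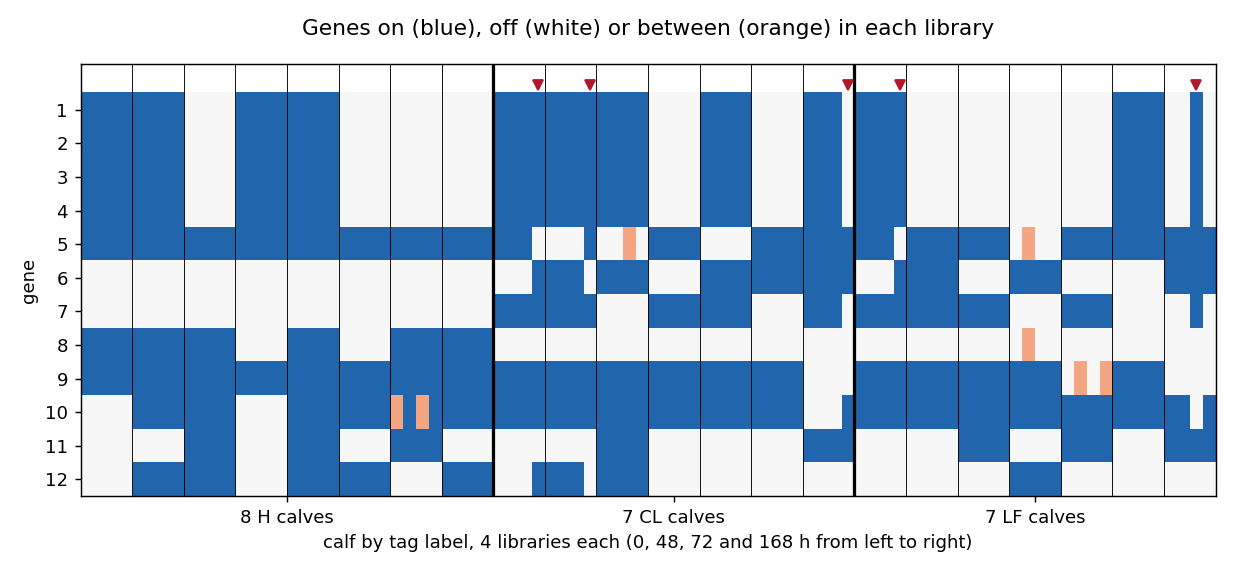
State of 12 genes (vertical axis, numbered) in the 88 libraries, with the 4 libraries of each calf side by side in order of age and calves grouped as H, CL and LF (horizontal axis). Blue is at least 20 counts, white at most 3 counts and orange between. The red triangles mark the 5 libraries that went against their tag, and the 4 uppermost genes always switched together.

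At 168 h, 1180 of 12965 genes tested (9.1%) were differentially expressed genes (DEG) between H and beef calves, defined by an adjusted p below 0.05 in the quasi-likelihood test of edgeR and a fold change of at least 1.5. Of these, 779 (6.01%) were higher and 401 (3.09%) were lower in H calves. The median log2 fold change was 0.92 for the genes higher in H and −0.83 for those lower in H, against −0.03 over all genes tested. Among the higher genes 41.3% exceeded 2-fold, 38 genes exceeded 4-fold and 8 exceeded 8-fold. Among the lower genes 33.4%, 18 genes and 5 genes did so. Without the fold threshold the test called 1841 genes higher and 1816 lower, and a test against a change of 1.5-fold itself called 84 and 11. Without the 4 libraries that went against their tag there were 1376 DEG (978 higher and 398 lower), of which 1070 were among the 1180.

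The genes on either side differed in abundance. Genes higher in H had a median of 24.4 CPM, near the 23.3 CPM of all genes tested, whereas genes lower in H had a median of 3.00 CPM. Genes under 5 CPM made up 62.1% of the lower group, 26.4% of the higher group and 23.4% of all genes tested. At 100 CPM or more there were 193 higher genes and 8 lower genes.

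Split into quartiles of abundance, the least abundant quartile (up to 5.72 CPM) had 6.69% of its genes as higher and 7.90% as lower DEG. The second had 5.12% and 3.15%, the third 4.10% and 0.895%, and the most abundant (from 65.1 CPM) 8.11% and 0.432%. The fold threshold shaped part of this pattern, since in the most abundant quartile 832 genes were higher and 331 lower by adjusted p alone, and in the second 302 and 590.

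**Figure D2:**
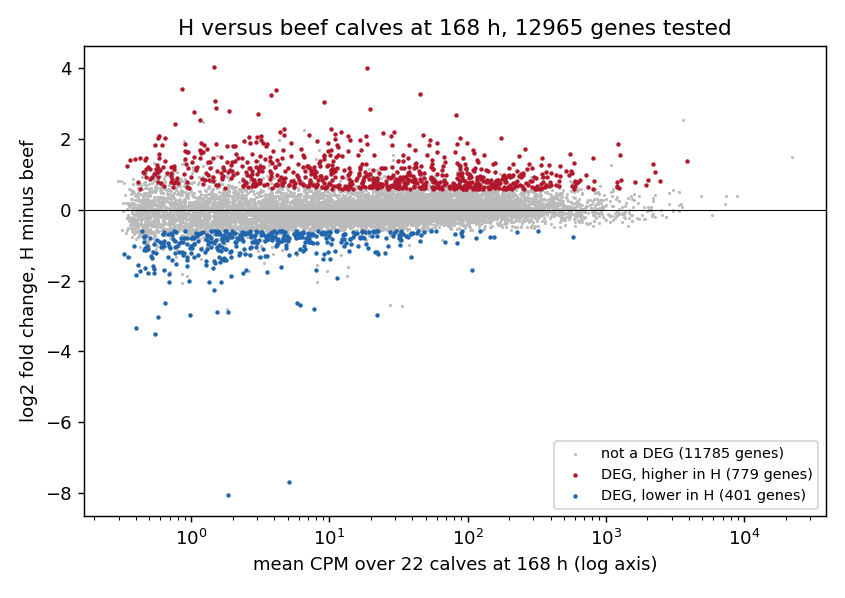
Log2 fold change of H over beef calves at 168 h (vertical axis) against mean CPM over the 22 calves (horizontal log axis), 1 point per gene tested. The 779 DEG higher in H (red) are spread over the whole range of abundance, while the 401 lower in H (blue) lie mostly at the low end.

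As a share of all counts at 168 h, the 779 higher genes took 8.48% to 14.6% (median 11.1%) in H calves and 5.12% to 9.03% (median 6.67%) in beef calves. The 401 lower genes took 0.228% to 0.385% (median 0.299%) in H and 0.443% to 0.744% (median 0.614%) in beef. These genes were chosen on the same libraries, so the shares are a description. They show that the higher group made up a sizeable fraction of blood RNA and the lower group a very small one.

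Within the H calves the groups were not equally marked. The mean log2 CPM of the higher genes lay 0.47 (H 2) to 1.301 (H 5) above the beef mean. For the lower genes it lay between −0.82 (H 2) and −1.60 (H 5). These levels use CPM without the normalization of the edgeR fits, whose factors had a median of 0.923 in H and 1.05 in beef. They are therefore on another scale than the fold changes. Beef calves ranged from −0.41 to 0.42 for the higher genes and from −0.27 to 0.30 for the lower genes. Neither range touched that of the H calves, but the genes were chosen on these same libraries, so this separation is a description only.

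Single genes whose ranges did not overlap between all 8 H and all 14 beef calves were rare, at 44 of the 12965 tested (0.339%), of which 27 (0.208%) were higher and 17 (0.131%) lower in H. Of these, 19 and 9 were also DEG. With the 4 doubtful libraries left out, and so with fewer calves to overlap, the counts were 127 and 70. The 2 largest changes in each direction among them, at a mean of at least 1 CPM, are described next. What these 4 genes encode is not given in the files.

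The first gene higher in H, ENSBTAG00000000820, had 49.6 CPM in the lowest H calf, a median of 93.6 and 156.6 in the highest, against 17.7, 29.8 and 47.8 CPM in beef. The lowest H calf (H 4) lay just above the highest beef calf (LF 2). The log2 fold change was 1.83 ± 0.21 (SE, n = 8 and 14; edgeR adjusted p = 2.65e-05). It was 1.84 against CL and 1.83 against LF.

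The second, ENSBTAG00000019106, had the smallest adjusted p of all genes at 168 h. It had 143, 204 and 344 CPM (lowest, median and highest) in H and 66.4, 80.6 and 110 CPM in beef. H 6 was highest and every H calf was clear of LF 7, the highest of the libraries labelled beef. The log2 fold change was 1.55 ± 0.14 (SE; edgeR adjusted p = 9.11e-07), with 1.70 against CL and 1.43 against LF.

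The first gene lower in H, ENSBTAG00000020713, had 3.90, 11.8 and 15.2 CPM in H and 18.2, 28.5 and 49.9 CPM in beef. H 5 stood lowest, and the beef library closest to the H calves was that labelled CL 1. The log2 fold change was −1.19 ± 0.19 (SE; edgeR adjusted p = 0.000284), with −1.32 against CL and −1.03 against LF.

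The second, ENSBTAG00000019208, was expressed at a low level in both systems, with 1.75, 2.71 and 3.79 CPM in H and 4.48, 6.09 and 8.14 CPM in beef, from no fewer than 30 counts in any library. The log2 fold change was −1.01 ± 0.15 (SE; edgeR adjusted p = 0.000179), with −1.07 against CL and −0.92 against LF. Each of the 4 genes was a DEG against CL and against LF taken alone, and without the 4 doubtful libraries their log2 fold changes were 1.92, 1.58, −1.21 and −0.998.

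**Figure D3:**
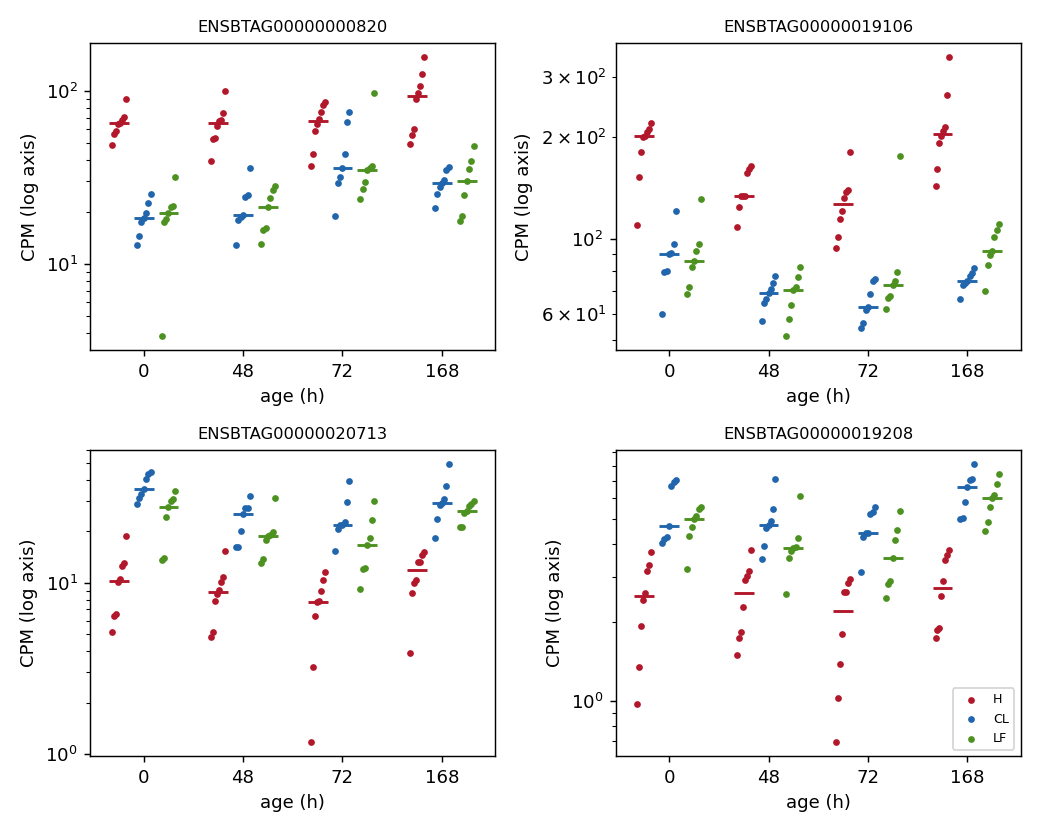
CPM of the 4 genes (vertical log axis) in each calf at 0, 48, 72 and 168 h (horizontal axis), with H in red, CL in blue and LF in green and short lines at the medians. At 168 h the H calves are separate from the CL and LF calves in all 4 panels, as the genes were chosen for ranges that do not overlap at that age. At 72 h they are not, although for ENSBTAG00000019106 only the LF 5 library that went against its tag lies in the H range. ENSBTAG00000000820 is also separate at 0 h and 48 h and ENSBTAG00000019106 at 48 h, while the other ranges at those ages overlap.

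The 4 genes had differed from birth onwards. ENSBTAG00000000820 had log2 fold changes of 2.09, 2.05 and 1.10 at 0, 48 and 72 h and was a DEG each time. At 72 h its highest beef value of 97.3 CPM came from LF 5, the library that went against its tag. The next was 76.1 CPM, within the H range of 36.9 to 85.9 CPM. ENSBTAG00000019106 had 1.32, 1.35 and 1.12 and ENSBTAG00000020713 had −1.31, −0.95 and −1.26, again DEG at each age. ENSBTAG00000019208 had −0.82, −0.53 and −0.79, with the 48 h change below the fold threshold. For none of the 4 did the interaction test detect a change of the difference between 72 h and 168 h or between 0 h and 168 h (edgeR adjusted p from 0.389 to 0.958). This does not show that the difference stayed the same. For ENSBTAG00000000820 it rose by 0.72 ± 0.38 (SE) in log2 from 72 h to 168 h (edgeR unadjusted p = 0.0618). With the calf as a block the unadjusted edgeR p was 0.0273 and the adjusted p 0.347.

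The 2 largest fitted falls at 168 h came from genes that were on in some beef calves and off in all H calves. One had at least 55 counts in 9 of 14 beef libraries and none in the other 5, against at most 1 count in H. A second gene had 212 to 421 counts in 8 beef libraries and at most 2 in the others, against at most 2 in H. Both are DEG, but as H lay under the floor of 3 counts in every library the size of the fall is not given. The reverse held for a gene outside the lists which had 69 to 261 counts in 6 of 8 H calves and at most 2 counts in every other library at 168 h. Being on in so few calves, it did not pass the filter on low counts and was not tested. Each had the same state in 19 to 21 of the 22 calves at all 4 ages, and the numbers of H calves with them on (0, 0 and 6) were the same at every age. They belong to the 12 genes used for the tag check and were chosen after their values were seen. Another 4 of those genes, which switched together, were on in 4 of 8 H and 6 of 14 beef calves and are not DEG. Calf sex is not given in the labels.

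The same question was asked against each beef breed alone. H differed from CL in 857 of 12847 genes (6.67%; 551 or 4.29% higher, 306 or 2.38% lower) and from LF in 870 of 12741 (6.83%; 666 or 5.23% higher, 204 or 1.6% lower). These comparisons share the H libraries, so their overlap is no independent support, and the values are given side by side. Of the 779 higher genes 504 were DEG against CL, 591 against LF, 419 (53.8%) against both and 13.2% against neither. Of the 401 lower genes 241 were DEG against CL, 180 against LF, 31.9% against both and 26.9% against neither. The median log2 fold change of the higher genes was 0.93 against CL and 0.91 against LF, and that of the lower genes −0.82 and −0.79. None of the genes tested against a breed had the opposite sign there. Those tested were 778 higher genes against each breed, and 377 lower genes against CL and 371 against LF. Genes not tested against a breed are counted above as not DEG against it. Without the libraries that went against their tag, H differed from CL in 1431 genes and from LF in 694. The CL count was thus larger without the 3 CL libraries in doubt than with them. Of the 978 higher genes then found, 78.3% were DEG against CL and 53.4% against LF, where the order had been the reverse with all libraries (64.7% and 75.9%), and 50.1% against both. Of the 398 lower genes, 66.1% were DEG against CL, 34.2% against LF and 23.1% against both.

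The 2 beef breeds were not separated from each other at this age. Between CL and LF, edgeR called 0 DEG of 12786 genes tested and DESeq2 also 0, while 243 genes (1.90%) had an unadjusted p under 0.05. Without the libraries that went against their tag edgeR again called 0, with 414 genes under that limit. On the first principal component, with 24.8% of the variance, H calves ranged from 8.45 to 57.3 and beef calves from −41.7 to 19.1. The library labelled CL 1 was the only beef library above the lowest H calf.

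The difference between H and beef at 168 h was then set beside the earlier ages, from 0 h, which was sampled before the first colostrum. There were 4 H libraries at those ages that stood apart from the other H calves, namely H 6 at 0 h and 48 h and H 5 and H 6 at 72 h. In them the median absolute log2 difference from the other calves of the breed was 0.749 to 1.25, against a median of 0.231 over all 88 libraries and a maximum of 0.5003 in the rest. Between 23.2% and 49.1% of their reads mapped to several places, where the highest share in the other libraries was 32.8%. Their 10 most counted genes took 13.4% to 51.1% of counts, and the differences are of CPM without the normalization of the edgeR fits. The DEG between H and beef calves numbered 2338 (18.1%) in the 0 h samples, 1606 (12.4%) in those of 48 h and 999 (7.78%) in those of 72 h, and without these 4 libraries 2003, 1322 and 786. At 72 h leaving them out turned the balance from 566 higher and 433 lower to 360 higher and 426 lower. Without the 72 h library that went against its tag there were 850 DEG at that age.

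Most genes that differed at 168 h had done so at birth. Of the 779 higher genes 542 (69.6%) were DEG in the same direction at 0 h, where 11.3% of all genes tested were higher in H. At 48 h they were 422 (54.2%; background 8.88%) and at 72 h 297 (38.1%; background 4.41%). Of the 401 lower genes 54.4%, 45.9% and 26.9% were lower DEG at 0, 48 and 72 h, with backgrounds of 6.82%, 3.51% and 3.37%. Opposite calls were absent among the higher genes and numbered 3, 1 and 0 among the lower genes. The same calves were sampled at each age, so the ages are not independent. Without the 4 libraries that stood apart, 707, 572 and 333 of the 1180 were shared with 0, 48 and 72 h, compared with 760, 606 and 405. Without the libraries that went against their tag, 68.6%, 52.2% and 32.1% of the higher genes and 55.8%, 47.2% and 22.9% of the lower genes were shared with 0, 48 and 72 h.

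As a share of the earlier lists, the higher genes made up 37.2%, 36.7% and 52.5% of the genes higher in H at 0, 48 and 72 h, and the lower genes 24.7%, 40.4% and 24.9% of those lower in H. There were 217 higher and 72 lower genes that were DEG in 1 direction at all 4 ages. Another 160 higher and 132 lower genes were DEG at 168 h alone, and without the libraries that went against their tag 227 and 132 were. With all libraries, the 160 higher and 132 lower genes had median log2 fold changes of 0.31 and −0.22 at 72 h against 0.75 and −0.83 at 168 h, so many were in the same direction but under the threshold before.

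A list followed from the age at which it was called looks largest at that age, and the lists were therefore followed in both directions. Genes higher in H at 0 h that were tested at all ages (1371) had median log2 fold changes of 0.92, 0.82, 0.62 and 0.58 in order of age. Genes lower in H at 0 h (842) had −0.76, −0.55, −0.55 and −0.44. Genes higher at 168 h (757) had 0.80, 0.75, 0.63 and 0.90, and genes lower at 168 h (362) had −0.73, −0.67, −0.54 and −0.81. Viewed from birth, the median difference was smaller at 168 h in both directions.

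**Figure D4:**
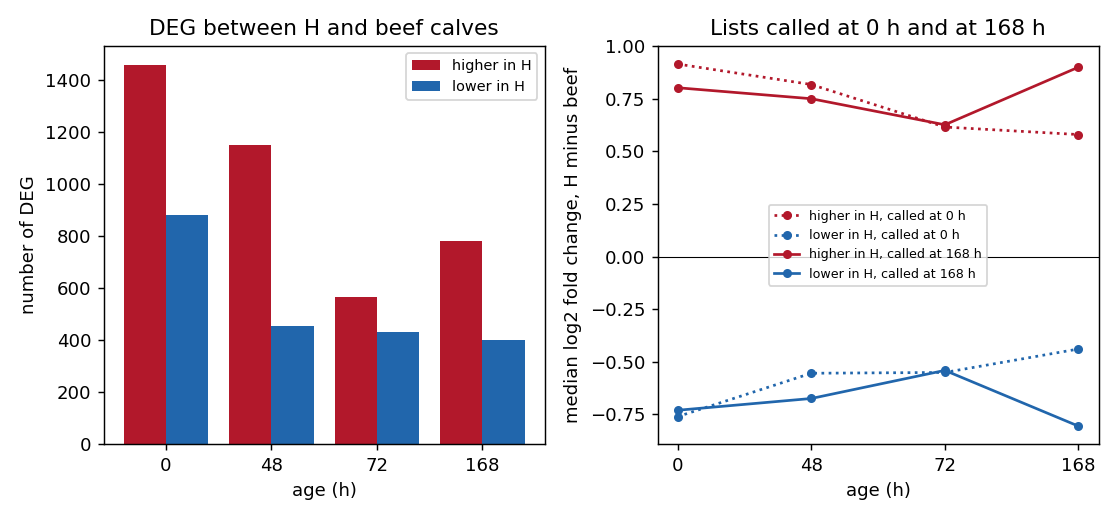
Number of DEG between H and beef calves at each age (left, bars), and median log2 fold change of the genes called at 0 h (dotted) and at 168 h (solid) over the 4 ages (right), with genes higher in H in red and lower in blue. The DEG fell from 2338 at 0 h to 999 at 72 h and numbered 1180 at 168 h, and each list peaks at the age at which it was called.

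Whether the difference itself had changed was tested by an interaction of system and age. The main fit took the libraries of a calf at both ages as independent. Against 72 h, edgeR called 0 of 13298 genes (smallest adjusted p = 0.249), with 1811 (13.6%) at an unadjusted p under 0.05, and DESeq2 called 10. Against 0 h, edgeR called 0 of 13402 genes (smallest adjusted p = 0.0599), with 2073 (15.47%) under that limit, and DESeq2 called 97. With the calf as a block, edgeR also called 0 against 72 h (smallest adjusted p = 0.311) and against 0 h (0.0579). Without the libraries that went against their tag edgeR called 0 in both cases, with 1560 and 1717 genes under the unadjusted limit, and without the libraries that stood apart it also called 0, with 1078 and 1685. In that last case the smallest adjusted p against 0 h was 0.0375, at a change under the fold threshold. The 292 genes that were DEG at 168 h alone are thus not shown by edgeR to be particular to that age.

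Followed as group means, the genes higher in H had a median level of 1.21 in H and 0.77 in beef at 0 h, in log2 CPM relative to the beef mean at 168 h. At 72 h these were 0.89 and 0.40, and at 168 h 0.82 and 0.04. The genes lower in H had medians of −1.22 in H and −0.15 in beef at 0 h, −1.34 and −0.50 at 72 h, and −1.12 and −0.04 at 168 h. The gap at 168 h is the one by which the genes were chosen, and these levels too are without the normalization of the edgeR fits.

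**Figure D5:**
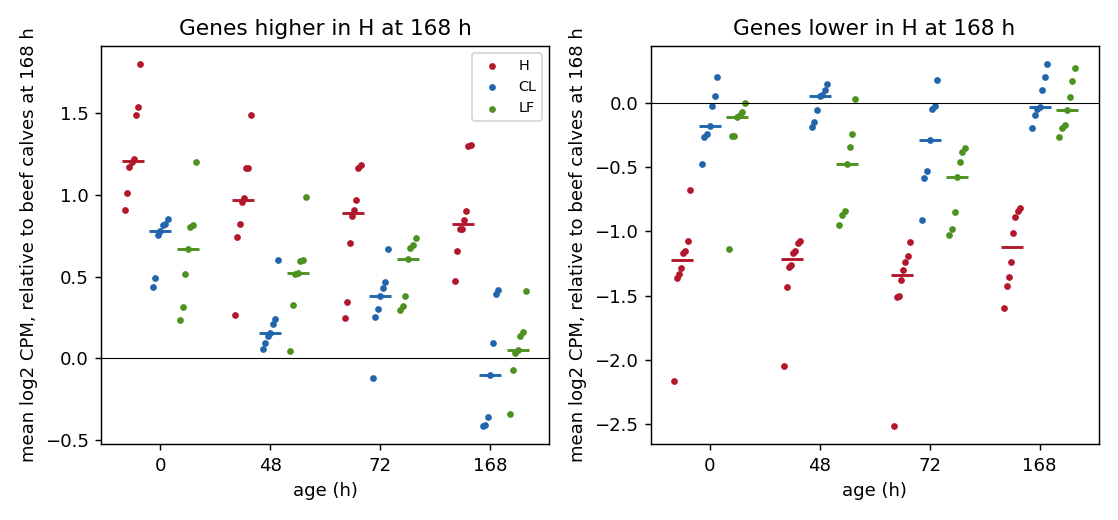
Mean log2 CPM of the 779 genes higher (left) and the 401 genes lower (right) in H at 168 h, relative to the beef mean at 168 h (vertical axis), in each calf at 0, 48, 72 and 168 h (horizontal axis), with H in red, CL in blue, LF in green and short lines at the medians. At 168 h the H calves do not overlap the beef calves, which the choice of genes fixes, while at 0, 48 and 72 h the ranges of the higher genes overlap.

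Spread among calves, in CPM without the normalization of the edgeR fits, was smaller at 168 h than before in the H group. The earlier values include the H libraries that stood apart. The median over genes of the standard deviation of log2 CPM was 0.280 in H and 0.267 within the beef breeds at 168 h. At the earlier ages of 0, 48 and 72 h it was 0.437, 0.527 and 0.613 in H and 0.297, 0.309 and 0.341 in beef. H exceeded beef in 56.5% of genes at 168 h and in 81.8% to 85.8% at the earlier ages. H 6 at 48 h accounted for much of that age, since the value without it was 0.305. Leaving out any 1 calf gave 0.331 to 0.460 at 0 h, 0.431 to 0.650 at 72 h and 0.271 to 0.284 at 168 h. The lowest values at 0 h and 72 h were also those without H 6. Without H 6 the values at 0 h and 48 h, 0.331 and 0.305, were still above the 0.280 of 168 h. At 72 h that value still included H 5, which also stood apart, and H 5 and H 6 were not left out together. The shares of genes in which H exceeded beef were not computed without the libraries that stood apart.

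Fewer genes reached 1 CPM in H than in beef at 168 h, 11687 ± 117 against 11855 ± 85.1 (SD, n = 8 and 14). The difference passed a two-sided exact permutation test (p = 0.000907, 0.0109 adjusted over the 36 tests of library measures at all 4 ages). It depended on scaling, as with library sizes normalized by the trimmed mean of M values it was −21.4 genes (exact permutation p = 0.618). At 168 h no other library measure, among them the shares of reads on genes, mapped to several places or unmapped, differed at an adjusted p under 0.05 (exact permutation test).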

How the data were processed

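The authors deposited STAR gene counts of whole-blood RNA-seq aligned to the UMD3.1 cattle genome, after adapter trimming with cutadapt and quality checks with FastQC, per the labels and the study's methods. The unstranded count column was used as deposited, without its summary lines. The strand columns held 50.7% and 49.7% of those counts. Groups came from the breed and timepoint labels, and calves from the tag number. By tag number the libraries at 168 h are separate calves, which the tag check puts in doubt for 4 of them. No 2 agreed within counting noise in 231 pairs, which speaks only to repeat sequencing of 1 library.

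Counts were filtered with filterByExpr, normalized by the trimmed mean of M values and tested with edgeR 4.0.16 (glmQLFit, glmQLFTest, robust), with Benjamini-Hochberg adjustment over all genes tested. The study used DESeq2, which was an alternative here (1.42.0). The fits were first tested on simulated counts. CPM in the text are per 1000000 counts on genes, log2 CPM used a prior count of 0.5, and floors cover counting error only.

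The named genes are the 2 largest changes in each direction among DEG of at least 1 mean CPM whose normalized ranges do not overlap. Gene lists, cell type markers and genes named by symbol could not be applied. The comparison and its lists were chosen with earlier results of these data known. Libraries of the same calf were paired by tag number. The mean correlation of same-calf deviations was 0.307 between 168 h and 72 h and 0.324 between 168 h and 0 h, with 20 and 18 of 22 calves over 0.1. A value over 0.1 does not show that a tag is right. The library labelled CL 1 had 0.133 with its own calf at 72 h and 0.360 with another. Those labelled CL 2 and CL 3 had −0.128 and −0.116, against 0.379 and 0.494 with each other's calf.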

Additional observations from a re-analysis of the deposited data

Results flagged for a closer look

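In 49 groups of 7 or 8 calves checked for a calf far from the rest, 7 had one. The limit used is set for about 1 in 20 by chance in independent, normally distributed values. The groups share libraries and related measures, so the count cannot be set against that rate. Among H calves at 168 h, H 8 had the lowest share of reads outside genes, 19.0% with the next at 22.7%. The same calf had the highest share of counts on its 10 most counted genes, 22.4% with the next at 12.6%, and the largest distance from the other H calves, 0.319 with the next at 0.252. Among LF calves at 168 h, LF 3 had 7.55% of counts on its 10 most counted genes with the next at 5.93%. The same library had 2.42% on the most counted gene with the next at 1.05%, so these flags are not separate. At the earlier ages the distance of H 6 from the other H calves was 0.787 at 0 h with the next at 0.369, and 1.14 at 48 h with the next at 0.288. Leaving out H 8 left 1102 DEG at 168 h.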

How the results depend on the processing

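The H versus beef comparison at 168 h was repeated under 37 alternatives, and none called a gene in the opposite direction. Its 1180 DEG became 695 with all 88 samples and the L number of the libraries as a term (624 shared), 3657 without the fold threshold and 95 in the test against 1.5-fold. Leaving out each calf in turn gave 881 (without H 5) to 1395 (without CL 1) DEG, and 741 of the 1180 were called in all 22 runs. The H versus CL count became 1431 without the libraries that went against their tag. The interactions, with 0 DEG, became 10 against 72 h and 97 against 0 h with DESeq2. With the calf as a replicate block, run for the interactions only and with the doubtful tags in it, both stayed at 0. The difference in genes at 1 CPM became −21.4 with normalized library sizes and −89.0 without the 10 most counted genes, which no longer passed. The causes were not tested. Other total counts of DEG stayed within 1.5 times, but those in 1 direction did not always. The 401 lower genes became 266 with at least 10 counts in every sample and 228 without libraries ending in R, and with DESeq2 the lower genes rose from 306 to 474 against CL and from 204 to 340 against LF. Of the 4 named genes, ENSBTAG00000019208 alone was lost once, in the test against 1.5-fold (edgeR adjusted p = 0.0818). Leaving out hemoglobin genes was not run, since they could not be identified. The alternatives without the doubtful tags, the libraries dominated by 1 gene, the 10 most counted genes and the libraries that stood apart, and those for genes at 1 CPM, were chosen after seeing the data.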
